A study of Bos taurus with 36 samples.

Results

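The chemokine system of the bovine fetus and its dam was described through the 56 protein-coding genes whose RefSeq symbol is that of a numbered CC, CXC or XC ligand or receptor, of CX3CL1, XCR1 or CX3CR1, or of an atypical chemokine receptor. They were 34 ligands, 18 receptors and 4 atypical receptors, out of 35092 genes counted and 20847 protein-coding genes. The symbol alone chose them, so none was chosen for its level. CXCL1, which the annotation lists under another name, was not taken, nor were the platelet chemokines PF4 and PPBP.

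The RNA came from 10 male fetuses of 42 days of gestation, 1 per heifer, numbered by weight from fetus 1 (1.253 g) to fetus 10 (1.69 g). Every heifer had received an embryo 7 days old. In the 5 heifers of ET_D7, which carried fetuses 1 to 5, it was transferred on Day 7 of the cycle, in synchrony with the embryo. In the 5 heifers of ET_D9, which carried fetuses 6 to 10, it was transferred on Day 9. All ET_D9 fetuses were heavier than all ET_D7 fetuses, so fetal weight and transfer group cannot be told apart here. The libraries numbered 9 from hearts (5 of ET_D7 and 4 of ET_D9), 9 from gonads (4 and 5), 8 from livers (5 and 3) and 10 from maternal blood (5 and 5). Libraries of the same number come from the same fetus or from the heifer carrying it.

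Chemokines are small secreted proteins that guide the movement of cells through G protein-coupled receptors on the cell surface. One chemokine can bind several receptors and one receptor several chemokines, while the atypical receptors take chemokines up or carry them without signalling through G proteins. In the fetus the best known pair is CXCL12 with its receptor CXCR4, which direct blood stem cells, germ cells and growing vessels, and in adult blood the receptors mark the kinds of leukocyte. No transcript lengths were used, so a level in CPM (the count of a gene relative to the library total, scaled by TMM, edgeR's correction for library composition) was compared for 1 gene between libraries and not between genes.

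The depth was 18231089 to 40812354 counts per library. The mitochondrial share of the counts was 17.1% to 57.3% for hearts, 16.3% to 36.8% for livers and at most 7.23% for gonads and blood. The libraries labelled as gonads had hardly any reads of GATA4 (median 0.0540 CPM) and DMRT1 (median 0.102 CPM), both on a list of 5 Sertoli cell genes. SOX9, SOX8 and AMH, the rest of that list, had medians of 3.01, 6.03 and 1.67 CPM. Of the germ cell list, DDX4, DAZL, POU5F1 and NANOS3 had medians of 0.101, 0, 0.0540 and 0.572 CPM, but KIT had 27.99 CPM. These libraries held a median of 107.5 CPM of PAX2 and 127 CPM of WT1. The first is a gene of the embryonic kidney and the second a gene of embryonic kidney and gonad. These markers were thus mixed, and the testicular label was not borne out by all of them. The blood libraries of the heifers carrying fetuses 2 and 5 held 3542 and 1185 CPM of a list of 5 heart muscle genes, against at most 19.6 CPM in the other 8 blood libraries. In the liver, 697 genes split the fetuses into some with 2 counts or fewer and the rest with 100 or more, where each other tissue had 8 such genes, and CXCR4 and CCL3 were among the 697.

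Of the 56 genes, 38 passed the filter (10 counts or more in 4 or more libraries of a tissue) in at least 1 tissue, and 18 passed in none. The number passing was 29 in maternal blood and 22 in each of heart, gonads and liver, and 13 genes passed in all 4 tissues. Maternal blood had most of the receptors, 14 of 18, where the heart had 4, the gonads 6 and the liver 8. The ligands were spread otherwise, with 13 of 34 passing in blood, 11 in the liver, 13 in the gonads and 16 in the heart. Across all protein-coding genes, 67.8% passed in blood, 70.8% in the liver, 74.6% in the gonads and 69.6% in the heart, against 39.3% of the chemokine genes in each organ and 51.8% in blood.

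The 8 genes that passed in blood and in no organ were 5 receptors (CCR9, CXCR1, CXCR3, CXCR5 and XCR1) and 3 ligands (CCL3, CXCL8 and XCL2). CCL3 did not reach the filter in the liver, yet the livers of fetuses 3 and 5 had 24.1 and 9.74 CPM. In blood it had at most 1.05 CPM. CXCR1 is a receptor of neutrophils, CXCR3 of activated T cells, CXCR5 of B cells, CCR9 of lymphocytes of the gut and XCR1 of cross-presenting dendritic cells. The 9 genes that passed in an organ and not in blood were 8 ligands (CCL2, CCL24, CCL26, CCL28, CX3CL1, CXCL3, CXCL13 and CXCL14) and the atypical receptor ACKR1. The shares of all protein-coding genes with these patterns of passing were not computed, so the 8 and 9 genes are given as listed. Blood and organ libraries were made with different kits, so kit and tissue cannot be told apart and no test was run between them.

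**Figure D1:**
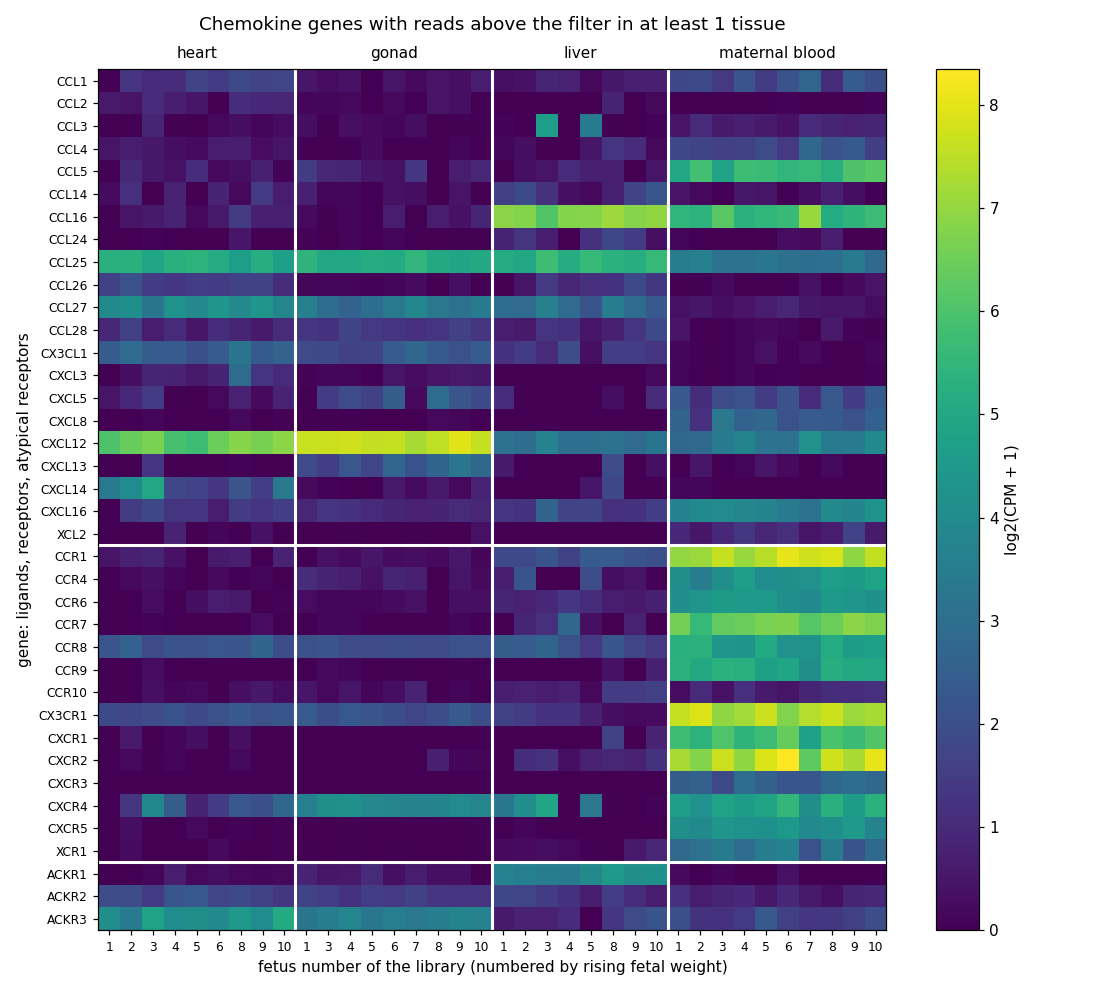
Level of the 38 chemokine genes that passed the filter in at least 1 tissue, as log2(CPM + 1) by colour, with 1 row per gene and 1 column per library, grouped by tissue and ordered by fetal weight. Most receptor rows are brighter in maternal blood than in the organs. Exceptions are CCR10, which is dark in all tissues, and CXCR4, which is also bright in the gonads and some livers. CXCL12 is bright in heart and gonads, and CCL16 is bright in liver and blood.

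No read was counted on 9 of the genes in any of the 36 libraries. They included the ligands CCL11, CCL19, CXCL10 and CXCL11, the receptors CCR2, CCR3 and CXCR6, and the atypical receptor ACKR4. CCR2 is known as the receptor of classical monocytes and CCR3 as that of eosinophils. In the same blood libraries a list of 5 monocyte and macrophage genes summed to 152 to 379.3 CPM. Of these, 4 had a median of 1 CPM or more. A list of 5 eosinophil genes, CCR3 among them, summed to 191.6 to 1304 CPM. Only 3 of these 5 were among the genes counted, and 2 had a median of 1 CPM or more. Of the 13 chemokine genes whose span overlaps another annotated gene, 6 were listed at 0 (46.2%), against 3 of the 43 others (6.98%). Across all protein-coding genes the shares were 11.1% and 9.47%. The part of the annotation or of the counting in these zeros was not tested, so they are given as listed and not as absence of the transcript.

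The 3 organs were compared in 1 fit of their 26 libraries with edgeR's quasi-likelihood test, in which 31 of the 56 chemokine genes were among 19635 genes tested. Between heart and liver, 10 chemokine genes were higher in the heart and 10 in the liver at an adjusted p under 0.05, against 33.5% and 34.8% of all genes tested. Between gonads and liver, 7 were higher in the gonads and 13 in the liver, against 36.3% and 37.7% of all genes. Between heart and gonads, 7 were higher in the heart and 5 in the gonads, against 28.8% and 28.7%. The chemokine genes had a median log2 difference of −0.26 in heart minus liver, −0.58 in gonad minus liver and 0.52 in heart minus gonad, where all genes tested had −0.03, −0.04 and −0.06.

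In the liver, 9 of the 31 genes (29.0%) were higher than in both other organs, against 26.7% of all genes. They were the ligands CCL3, CCL16 and CCL24, the receptors CCR1, CCR6, CCR7, CCR10 and CXCR2, and the atypical receptor ACKR1. In the heart, 5 genes (16.1%) were higher than in both others, against 13.9% of all genes, and all were ligands (CCL1, CCL2, CCL27, CXCL3 and CXCL14). In the gonads, 3 ligands (9.68%) were higher than in both others (CXCL5, CXCL12 and CXCL13), against 18.5% of all genes. With the fetus as a replicate block, 8 genes were higher in the liver, where CCL3 and CCR10 were lost and CCL14 was gained, 3 in the heart, where CCL1 and CCL2 were lost, and the same 3 in the gonads. Of the 17 genes, 5 reached the filter through the organ where they were high alone, CCL2 in the heart, CXCL13 in the gonads and CCL24, CCR7 and CXCR2 in the liver, so the filter had a part in these calls and in the shares given.

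The scaling for library composition mattered to contrasts with the gonads. With plain library totals, an alternative added after the data were seen, the median log2 difference of all genes moved to 1.01 in gonad minus liver and −1.11 in heart minus gonad, and stayed at −0.03 in heart minus liver. On that scale 13 chemokine genes were higher in the gonads and 9 in the liver, against 56.4% and 20.6% of all genes, and 4 were higher in the heart and 11 in the gonads, against 9.80% and 61.2%. The genes higher than in both other organs were then 8 in the gonads (CXCL5, CXCL12 and CXCL13 with CCL5, CCL25, CCL28, CCR8 and CX3CR1), 2 in the heart (CCL1 and CXCL14) and 6 in the liver (CCR6, CCR10 and CXCR2 being lost). Differences below are those under TMM, which sets the bulk of genes equal between organs.

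CXCL12 (Entrez 613811), which attracts cells that carry CXCR4, ranged from 152.2 to 244.6 CPM in the gonads with a median of 193.6. In the heart it ranged from 51.8 to 118.1 CPM with a median of 86.9, and in the liver from 6.61 to 11.95 CPM with a median of 7.52. The 3 organs did not overlap. The log2 difference was 4.60 in gonad minus liver (SE 0.172, adjusted p = 9.56e-19, edgeR), 3.42 in heart minus liver (SE 0.163, adjusted p = 1.93e-16, edgeR) and −1.18 in heart minus gonad (SE 0.141, adjusted p = 5.23e-08, edgeR).

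CXCR4 (Entrez 281736), its signalling receptor, did not separate the organs as its ligand did. It was steady in the gonads, at 11.0 to 17.1 CPM with a median of 12.9. In the heart it ranged from 0 CPM in fetus 1 to 13.1 CPM in fetus 3, with a median of 3.14. In the liver fetuses 1, 2, 3 and 5 had 8.69, 16.1, 29.8 and 8.86 CPM, while fetuses 4, 8, 9 and 10 had at most 0.0650 CPM, which is 0 or 1 read in each. No organ contrast of CXCR4 passed the test (log2 −1.83 in heart minus gonad, SE 0.881, adjusted p = 0.0779, edgeR), though that one passed without fetus 3 (log2 −2.35, adjusted p = 0.0355, edgeR). In the liver, 43 genes had at most 2 counts in those same 4 fetuses and at least 100 in the other 4.

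ACKR3 (Entrez 509585), the atypical receptor that removes CXCL12, ranged from 9.55 to 33.2 CPM in the heart, from 8.19 to 12.9 CPM in the gonads and from 0 to 3.47 CPM in the liver. Each heart and gonad library exceeded every liver library. The log2 difference was 3.81 in heart minus liver (SE 0.475, adjusted p = 6.54e-08, edgeR) and 2.96 in gonad minus liver (SE 0.458, adjusted p = 2.09e-06, edgeR). Heart and gonads overlapped and did not pass the test (log2 0.86, SE 0.399, adjusted p = 0.0672, edgeR).

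CXCL14 (Entrez 511771), a chemokine of epithelia and connective tissue, ranged from 1.52 to 31.4 CPM in the heart with a median of 3.59. It reached at most 0.779 CPM in the gonads, and in the liver it was at 0 in 6 of 8 libraries and reached 2.53 CPM in fetus 8. Its heart level spread widely, with 9.26, 15.6 and 31.4 CPM in fetuses 1, 2 and 3 and 9.17 CPM in fetus 10, against at most 3.59 CPM in the other 5. Heart exceeded gonad by 5.04 on the log2 scale (SE 1.05, adjusted p = 0.000186, edgeR) and liver by 4.46 (SE 1.09, adjusted p = 0.000779, edgeR).

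CXCL3 (Entrez 613667), a ligand of the neutrophil receptor CXCR2, had a median of 0.760 CPM in the heart and a maximum of 6.70 CPM in fetus 8. It had a median of 0.202 CPM in the gonads and was at 0 in 7 of 8 livers. Heart minus gonad was 2.52 on the log2 scale (SE 0.808, adjusted p = 0.00917, edgeR). Without fetus 8 it was 1.64 (adjusted p = 0.0795, edgeR), and with plain totals 1.63 (adjusted p = 0.0774, edgeR).

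CCL27 (Entrez 101902682), known as a skin chemokine, ranged from 8.48 to 19.8 CPM in the heart, from 5.20 to 13.0 CPM in the gonads and from 3.45 to 11.5 CPM in the liver, so that all 3 ranges overlapped. Its log2 difference was 0.82 in heart minus gonad (SE 0.215, adjusted p = 0.00187, edgeR) and 1.13 in heart minus liver (SE 0.226, adjusted p = 8.27e-05, edgeR). With plain totals heart minus gonad turned to −0.27 (adjusted p = 0.223, edgeR). CCL1, a ligand of CCR8, had 1.01 to 2.58 CPM in 8 hearts and 0 CPM in the heart of fetus 1, against at most 0.593 CPM in the gonads and 0.824 CPM in the livers. Its heart minus liver difference of 1.70 (SE 0.622, adjusted p = 0.0180, edgeR) had an adjusted p of 0.0549 with the fetus as a replicate block.

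CCL2 (Entrez 281043), which attracts monocytes, reached at most 1.08 CPM in the heart, 0.368 CPM in the gonads and 0.759 CPM in the liver, and the ranges overlapped. Heart minus gonad was 2.37 (SE 0.985, adjusted p = 0.0414, edgeR), with an adjusted p of 0.0589 under the replicate block. That call was also lost without fetus 1, 3, 4, 5, 7 or 10 (adjusted p 0.0551 to 0.0894, edgeR), with a filter of 1 count (adjusted p = 0.0602) and with plain totals (adjusted p = 0.190). Heart minus liver was 2.44 (SE 1.07, adjusted p = 0.0451, edgeR), which was lost without fetus 1, 2, 3, 4, 5, 9 or 10 (adjusted p 0.0633 to 0.113, edgeR) and with a filter of 1 count (adjusted p = 0.0571). CCL26, an attractant of eosinophils, separated gonads from hearts, with at most 0.278 CPM in the gonads against 1.09 to 3.24 CPM in the heart (log2 4.20 in heart minus gonad, SE 0.666, adjusted p = 4.90e-06, edgeR).

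CXCL13 (Entrez 511674), which attracts B cells through CXCR5, ranged from 1.96 to 8.57 CPM in the gonads. It was at 0 in 7 of 9 hearts and 5 of 8 livers, with single higher libraries of 1.45 CPM in the heart of fetus 3 and 2.87 CPM in the liver of fetus 8. Gonad minus liver was 3.22 on the log2 scale (SE 1.12, adjusted p = 0.0119, edgeR) and heart minus gonad −4.52 (SE 1.14, adjusted p = 0.00134, edgeR). The receptor CXCR5 did not pass the filter in any organ.

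CXCL5 (Entrez 281735), a ligand of neutrophils, had 1.71 to 6.75 CPM in 7 gonad libraries, but 0 and 0.162 CPM in those of fetuses 1 and 7. The hearts reached 1.70 CPM and the livers 1.07 CPM. Heart minus gonad was −2.29 (SE 0.960, adjusted p = 0.0437, edgeR), and this call was lost without fetus 4, 5, 6, 8, 9 or 10 (adjusted p 0.0553 to 0.105, edgeR). It was also lost with a filter of 1 count (adjusted p = 0.0514, edgeR).

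CCL16 (Entrez 616732), a liver-expressed chemokine, had 67.3 to 139.4 CPM in the liver with a median of 112.3. The hearts reached 1.81 CPM and the gonads 0.830 CPM. The log2 difference was −7.47 in heart minus liver (SE 0.581, adjusted p = 6.68e-12, edgeR) and −8.59 in gonad minus liver (SE 0.603, adjusted p = 7.17e-13, edgeR). These were the largest differences of any chemokine gene in each of the 2 contrasts.

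ACKR1 (Entrez 528076), which binds many chemokines on the walls of small veins and, in humans, on red cells, ranged from 10.2 to 21.4 CPM in the liver, above every heart (at most 0.591 CPM) and every gonad (at most 1.01 CPM). Its log2 difference was −6.39 in heart minus liver (SE 0.628, adjusted p = 7.83e-10, edgeR) and −4.99 in gonad minus liver (SE 0.570, adjusted p = 1.18e-08, edgeR). The annotated span of ACKR1 overlaps that of CADM3, and those of ACKR2, CCR10 and XCR1 also overlap other genes. How reads were assigned there is uncertain. Markers of red cells summed to 1474 to 3154 CPM in the liver, 29.6 to 63.1 CPM in the heart and 3.86 to 12.8 CPM in the gonads. Their part in the ACKR1 difference was not tested, and in bulk tissue more cells of a type and more RNA per cell cannot be told apart.

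CCR1 (Entrez 407771), a receptor of monocytes and neutrophils, ranged from 2.05 to 4.26 CPM in the liver and reached 0.809 CPM in the heart and 0.437 CPM in the gonads, with no overlap. Its log2 difference was −2.79 in heart minus liver (SE 0.583, adjusted p = 0.000142, edgeR). CCR7, the receptor that brings cells to lymph nodes, had a median of 0.481 CPM in the liver, but 5.93 CPM in fetus 4 against at most 1.18 CPM in the others. CXCR2 had a median of 0.780 CPM in the liver and CCL24 1.02 CPM, each at or near 0 in most hearts and gonads. Neutrophil markers summed to 82.1 to 158.8 CPM in the liver against at most 4.65 CPM in the other organs, and monocyte and macrophage markers to 77.2 to 129.6 CPM against at most 19.2 CPM. Of 5 neutrophil genes listed, 4 were among the genes counted, and 3 had a liver median of 1 CPM or more. The part of these cells in these differences was not tested.

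CCL3 (Entrez 282170), a ligand of CCR1, was higher in the liver only through fetuses 3 and 5. They had 24.1 and 9.74 CPM, 410 and 299 reads, while the other 6 livers had at most 0.0650 CPM. The log2 difference was −4.52 in heart minus liver (SE 1.33, adjusted p = 0.00392, edgeR) and −5.15 in gonad minus liver (SE 1.35, adjusted p = 0.00134, edgeR). With the fetus as a replicate block the adjusted p-values were 0.472 and 0.289.

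CX3CL1 (Entrez 517354), a chemokine anchored in the membrane of vessel and nerve cells, and its receptor CX3CR1 (Entrez 100124525) were both lowest in the liver. CX3CL1 had a median of 1.58 CPM in the liver, 4.39 CPM in the heart and 3.21 CPM in the gonads, and CX3CR1 had 0.973, 3.16 and 3.02 CPM. In heart minus liver the log2 difference was 1.68 for CX3CL1 (SE 0.319, adjusted p = 4.38e-05, edgeR) and 1.67 for CX3CR1 (SE 0.382, adjusted p = 0.000389, edgeR). The annotated spans of CX3CR1 and CCR8 overlap, so how reads were assigned between both genes is uncertain. The ratio of CX3CR1 to CCR8 was 0.0638 to 0.452 for livers, 0.477 to 1.27 for hearts and 0.831 to 1.37 for gonads.

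CCL25 (Entrez 615986), which attracts cells that carry CCR9, had overlapping ranges in the organs, with 24.7 to 41.4 CPM in the heart, 28.2 to 44.1 CPM in the gonads and 31.4 to 52.3 CPM in the liver. Its log2 difference was −0.26 in heart minus liver (SE 0.125, adjusted p = 0.0626, edgeR), while with plain totals CCL25 was higher in the gonads than in the other organs. CCL5, CCL28, CCR8 and CXCR4 also passed no organ contrast. CXCL16, the ligand of CXCR6, passed in gonad minus liver (log2 −1.15, SE 0.450, adjusted p = 0.0240, edgeR), with 0.707 to 1.44 CPM in the gonads and 1.22 to 5.36 CPM in the liver, and did not with the replicate block (adjusted p = 0.136) or plain totals (adjusted p = 0.895). ACKR2, which takes up inflammatory CC chemokines, passed in heart minus liver (log2 0.76, SE 0.288, adjusted p = 0.0211, edgeR), with medians of 2.58 and 1.58 CPM.

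**Figure D2:**
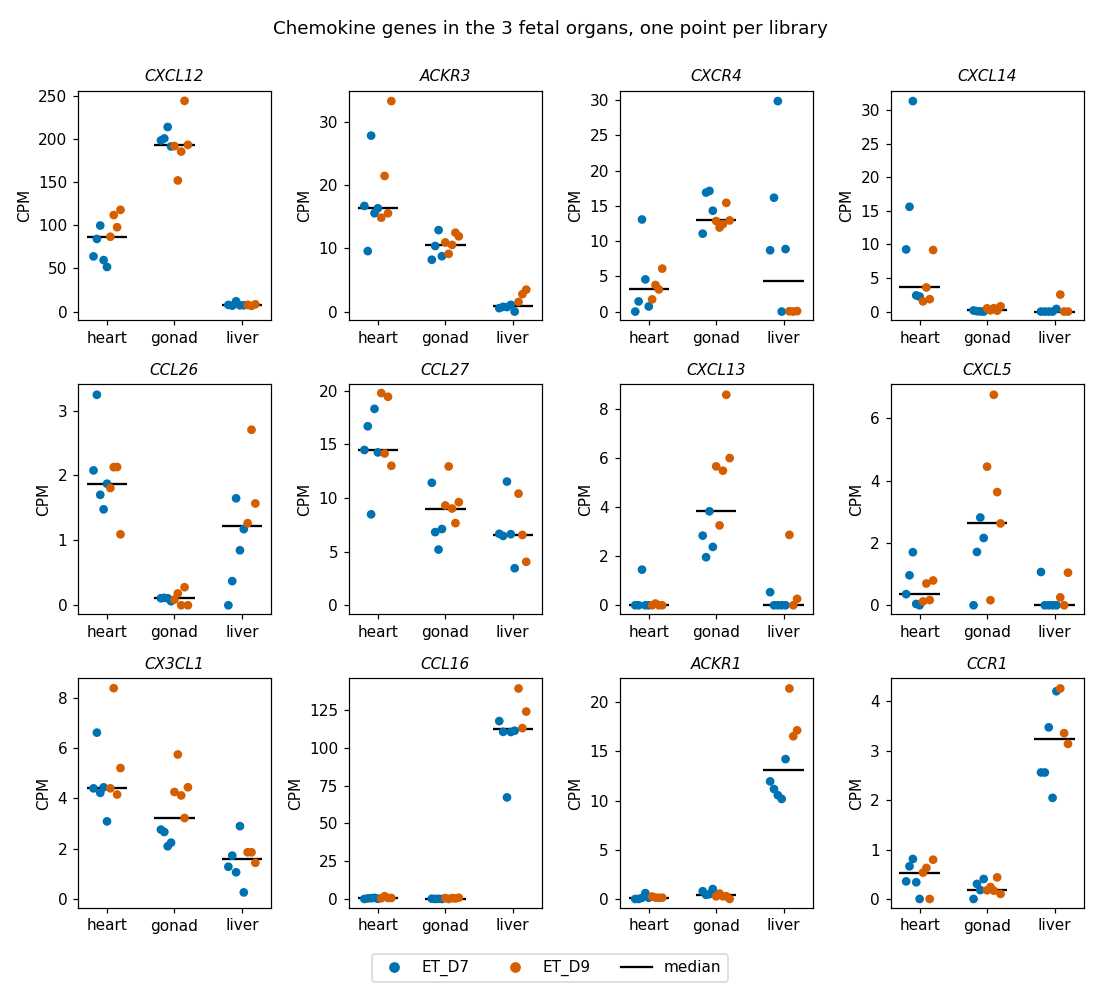
Level of 12 chemokine genes in CPM (vertical axes, linear, 1 scale per panel) in the heart, gonad and liver libraries, with 1 point per library coloured by transfer group and the median as a line. CXCL12 separates all 3 organs, every liver value of CCL16, ACKR1 and CCR1 lies above every heart and gonad value, and liver CXCR4 falls into 4 libraries from 8.69 CPM upwards and 4 near 0.

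Of 43 genes that act with chemokine receptors (G proteins, arrestins, kinases, small GTPases and related ligands), 39 were tested in the organs. The liver was higher than both others in 18 (46.2%), the heart in 11 (28.2%) and the gonads in 2 (5.13%), against 26.7%, 13.9% and 18.5% of all genes. Those of the liver included RAC2, a GTPase of blood cells, with 3.75 to 19.4 CPM against at most 1.44 CPM in the heart, and the platelet chemokine PF4, with 69.1 to 249.3 CPM against at most 30.5 CPM. The heart list held GNAI2, the G protein subunit that chemokine receptors use, at 139 to 284.2 CPM against at most 131.6 CPM in the gonads. TIAM1, an activator of RAC1, was highest in the gonads, at 53.1 to 82.5 CPM.

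In maternal blood the 18 receptor genes summed to 659.7 to 1040 CPM, and the 34 ligands to 118.6 to 230.5 CPM. The organs had 6.65 to 44.3 CPM of receptors and 121.6 to 302.1 CPM of ligands. PF4 and PPBP, which the symbol rule did not take, are outside these ligand sums. In blood PF4 had 114.1 to 521.2 CPM and PPBP 5.89 to 22.1 CPM. Without transcript lengths, the sums of receptors and of ligands are not set against each other. CXCR2 (Entrez 782719), the receptor by which neutrophils follow CXCL8, ranged from 76.0 CPM in the heifer carrying fetus 7 to 323.5 CPM in the heifer carrying fetus 6, with a median of 178.8. CXCR1, the other CXCL8 receptor, ranged from 26.2 to 81.5 CPM with the same 2 heifers at its ends, and the ratio of CXCR2 to CXCR1 stayed between 2.71 and 4.51. CXCL8 itself had 1.25 to 9.01 CPM in blood and was at 0 in every liver.

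CCR1 ranged from 120.4 to 262.6 CPM in blood, CX3CR1 from 107.4 to 231.8 CPM and CCR7 from 47.5 to 116.7 CPM. CX3CR1 marks patrolling monocytes and cytotoxic lymphocytes, and its ratio to CCR8 was 5.13 to 9.28 in blood, higher than in any organ library. CCR9 ranged from 16.4 to 39.9 CPM, CXCR4 from 16.3 to 44.7 CPM and CCR6 from 15.0 to 22.3 CPM. The lymphocyte receptors CXCR5 and CXCR3 had medians of 17.1 and 4.93 CPM, and XCR1 had 7.22 CPM.

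Of the ligands, CCL5, a product of T cells and natural killer cells, ranged from 26.8 to 71.2 CPM in blood. CCL16 ranged from 33.9 to 73.5 CPM in 9 heifers and reached 130.7 CPM in the heifer carrying fetus 7. CXCL16 had 7.71 to 18.4 CPM, CXCL12 5.91 to 17.8 CPM and CCL25 6.18 to 11.5 CPM. CCL19 and CCL21, the ligands of CCR7, did not pass the filter in blood, nor did XCL1, a ligand of XCR1.

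The heifer carrying fetus 7, singled out after the values were seen, had the lowest level of 6 of the 14 receptors that passed in blood (CCR6, CCR9, CXCR1, CXCR2, CXCR4 and XCR1) and the highest of none. In the same library the neutrophil markers summed to 881.6 CPM and the monocyte and macrophage markers to 152 CPM, the lowest of the 10. The eosinophil markers, of which 2 had a blood median of 1 CPM or more, summed to 1304 CPM, the highest. The heifer carrying fetus 6 had the highest level of 5 receptors (CCR1, CXCR1, CXCR2, CXCR4 and XCR1) and neutrophil markers of 1988 CPM, while the highest neutrophil sum, 2403 CPM, was that of the heifer carrying fetus 3, which had the highest level of no receptor. How often these libraries were lowest or highest among all genes in blood was not computed. The counts are thus not read as a trait of the receptors. The part of leukocyte composition in these levels was not tested.

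**Figure D3:**
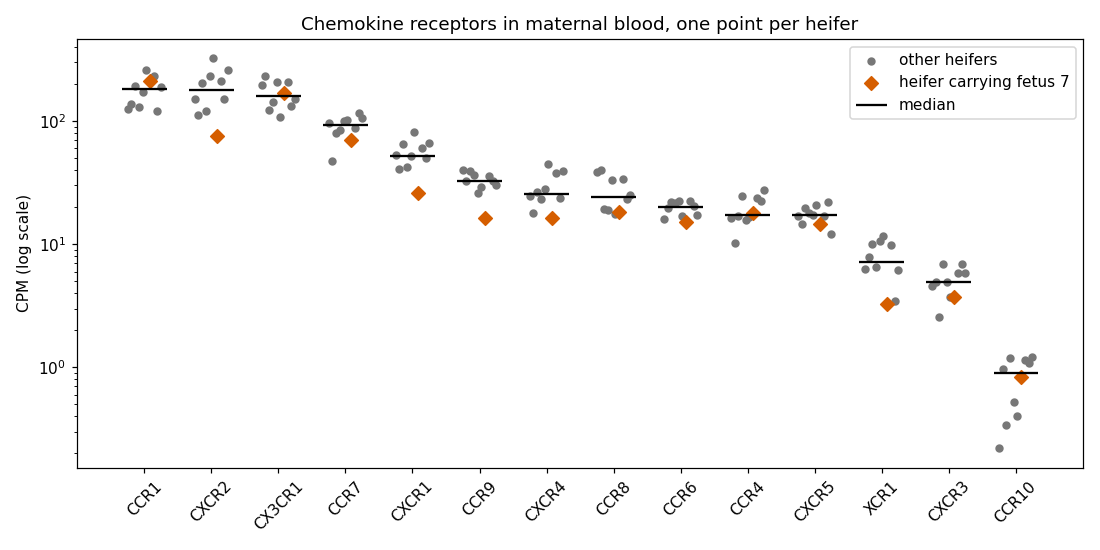
Level of the 14 chemokine receptors that passed the filter in maternal blood, in CPM on a log axis, with 1 point per heifer, the median as a line and the heifer carrying fetus 7 as a diamond. The diamond is the lowest point for CCR6, CCR9, CXCR1, CXCR2, CXCR4 and XCR1.

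The relation of each gene to fetal weight was tested within each tissue by a linear term (log2 change per 0.1 g) and by a natural spline with 3 degrees of freedom. In the heart, none of 22 chemokine genes had an adjusted p under 0.05 for the linear term, against 6.77% of all genes, and 2 had an unadjusted p under 0.05, against 29.1% of all genes. The spline gave 0 at an adjusted p, against 0.0% of all genes, and 1 at an unadjusted p, against 7.99%. DESeq2 called 1 gene for the linear term, CXCL3, and 1 for the spline.

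The 2 heart genes were CXCL3 and CXCL12, both with positive slopes. CXCL3 had at most 0.837 CPM in the 5 ET_D7 hearts and 0.739 to 6.70 CPM in the 4 of ET_D9, with its maximum in fetus 8 (slope 0.90, SE 0.322, unadjusted p = 0.0183, adjusted p = 0.1, edgeR). CXCL12 had 51.8 to 99.9 CPM in the ET_D7 hearts and 86.9 to 118.1 CPM in those of ET_D9, which overlapped (slope 0.16, SE 0.0655, unadjusted p = 0.0300, adjusted p = 0.128, edgeR). Without fetus 3 its adjusted p was 0.0446, and without each other fetus it was 0.129 to 0.472. The count of 2 genes at an unadjusted p became 0 without fetus 8 and with transfer group as a covariate, 1 without fetus 1 or 10, 4 without fetus 9 and 5 without fetus 3. The mitochondrial share of the heart libraries ranged from 57.3% in fetus 2 to 17.1% in fetus 10, and its part in these slopes was not tested. CCL25 (slope −0.11, SE 0.0489, adjusted p = 0.180, edgeR) and CX3CR1 (slope 0.11, SE 0.0565, adjusted p = 0.208, edgeR) had the next smallest p-values.

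In the gonads, none of 22 genes had an adjusted p under 0.05 by either fit, against 0.0% of all genes in both. An unadjusted p under 0.05 was found for 2 genes with the linear term, against 5.62% of all genes, and for 0 with the spline, against 12.6%. DESeq2 called 1 gene for the spline and 0 for the linear term. CXCL13 had 1.96 to 3.83 CPM in the 4 ET_D7 gonads and 3.25 to 8.57 CPM in the 5 of ET_D9 (slope 0.35, SE 0.0968, unadjusted p = 0.00487, adjusted p = 0.849, edgeR). CXCL3 was at most 0.476 CPM (slope 0.65, SE 0.267, unadjusted p = 0.0350, adjusted p = 0.849, edgeR). CX3CL1 had a slope of 0.20 (SE 0.0951) and ACKR1 of −0.58 (SE 0.279), each with an adjusted p of 0.849 in edgeR.

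In the liver, 1 of 22 genes passed at an adjusted p under 0.05 for the linear term, against 2.23% of all genes, and 4 had an unadjusted p under 0.05, against 17.2%. The spline gave 0 at an adjusted p, against 1.81% of all genes, and 2 at an unadjusted p, against 17.9%. DESeq2 called 2 genes for the linear term and 1 for the spline. The gene that passed was CX3CR1, which fell by 0.89 on the log2 scale per 0.1 g (SE 0.190, adjusted p = 0.0469, edgeR).

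CX3CR1 had 2.03, 1.81, 1.29, 1.34 and 0.652 CPM in the livers of fetuses 1 to 5 and 0.253, 0.150 and 0.196 CPM in those of fetuses 8, 9 and 10. The 3 heaviest had 6, 3 and 3 reads, against 19 to 39 in the others, and the transfer groups did not overlap. The gene passed the count filter through the 5 lighter fetuses alone. The call was lost without fetus 1, 2, 5, 8, 9 or 10 (adjusted p 0.0532 to 0.246, edgeR), while the slope stayed between −0.85 and −0.98. With the transfer group in the fit the slope was −0.64 (SE 0.621, adjusted p = 0.793, edgeR). In the same livers a list of 5 B cell genes summed to 9.74 to 22.7 CPM in fetuses 1 to 5 and 1.70 to 3.50 CPM in fetuses 8, 9 and 10, but only 2 of the 5 had a median of 1 CPM or more, and CD79B, MS4A1 and PAX5 were under 0.1 CPM. T cell markers summed to 0 to 0.988 CPM in the lighter 5 and 0.915 to 2.90 CPM in the heavier 3, and monocyte and macrophage markers to 92.1 to 121.3 CPM and 77.2 to 129.6 CPM. Of the 5 T cell genes, 0 had a liver median of 1 CPM or more. The part of these cells in the fall of CX3CR1 was not tested.

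CXCR4, which passed the filter in the liver through fetuses 1, 2, 3 and 5 alone, had a liver slope of −2.52 (SE 0.681, unadjusted p = 0.00456, adjusted p = 0.0906, edgeR). ACKR1 had 10.2 to 14.2 CPM in the 5 ET_D7 livers and 16.5 to 21.4 CPM in the 3 of ET_D9, with no overlap (slope 0.16, SE 0.0590, unadjusted p = 0.0245, adjusted p = 0.205, edgeR). CCR10, known as a receptor of CCL27 and CCL28, had at most 0.705 CPM in the lighter 5 and 1.73 to 1.96 CPM in the heavier 3 (slope 0.44, SE 0.194, unadjusted p = 0.0483, adjusted p = 0.286, edgeR).

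In maternal blood, 0 of 29 genes had an adjusted p under 0.05 for the linear term, against 0.0% of all genes, and 2 had an unadjusted p under 0.05, against 9.69%. The spline gave 0 at an adjusted p, against 0.129% of all genes, and 0 at an unadjusted p, against 9.77%. DESeq2 called 0 for both. CCR4 (Entrez 408019), a receptor of helper T cells of type 2 and regulatory T cells, had 10.3 to 24.5 CPM in the ET_D7 heifers and 16.7 to 27.7 CPM in those of ET_D9 (slope 0.18, SE 0.0603, unadjusted p = 0.0120, adjusted p = 0.422, edgeR). CXCL12 had 5.91 to 12.5 CPM and 7.93 to 17.8 CPM (slope 0.21, SE 0.0885, unadjusted p = 0.0374, adjusted p = 0.498, edgeR). Both pairs of ranges overlapped.

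Without the 2 blood libraries that held muscle genes, the slope was 0.13 for CCR4 (adjusted p = 0.853, edgeR) and 0.16 for CXCL12 (adjusted p = 0.885, edgeR). CCL5 and CCR10 had the next smallest p-values in blood, with slopes of 0.15 (SE 0.0710, adjusted p = 0.534, edgeR) and 0.28 (SE 0.160, adjusted p = 0.601, edgeR). A slope above 0 was found for 17 of 29 chemokine genes in blood, 13 of 22 in the liver, 11 of 22 in the gonads and 14 of 22 in the heart. Among all genes it was found for 50.9%, 47.0%, 48.4% and 46.4%.

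Of the genes acting with chemokine receptors, RGS2, which shortens G protein signals, rose with weight in the heart (slope 0.33, SE 0.0775, adjusted p = 0.0419, edgeR) and ELMO1, which links receptors to RAC, fell (slope −0.26, SE 0.0603, adjusted p = 0.0419, edgeR). They were 2 of the 36 tested in the heart, against 6.77% of all genes, and 12 of the 36 (33.3%) had an unadjusted p under 0.05 there, against 29.1%. In the other tissues 0 passed, and an unadjusted p under 0.05 was found for 4 of 40 in blood (10.0%), 5 of 39 in the liver (12.8%) and 3 of 37 in the gonads (8.11%), against 9.69%, 17.2% and 5.62% of all genes.

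**Figure D4:**
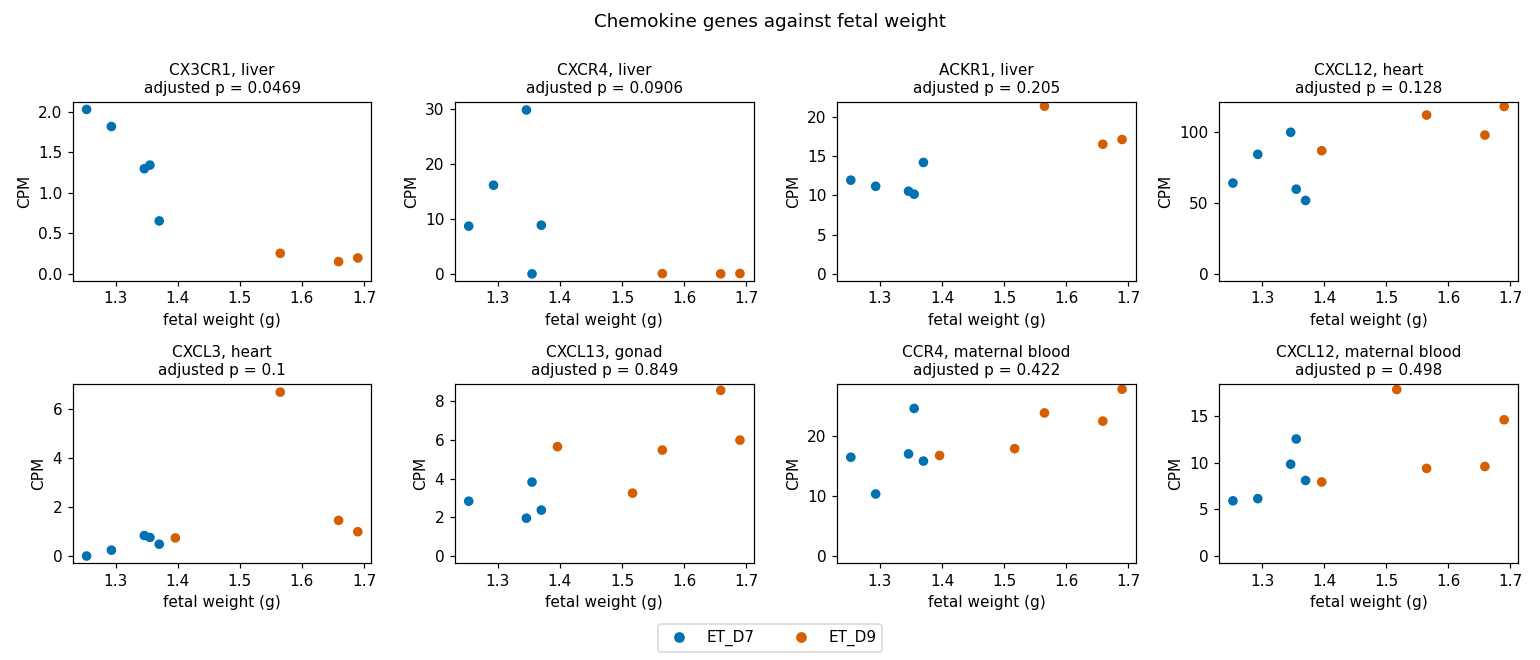
Level of chemokine genes in CPM (vertical axes, linear) against fetal weight in g, with 1 point per library coloured by transfer group and the adjusted p of the linear term above each panel. CX3CR1 in the liver, adjusted p = 0.0469, falls with weight, and the other 7 panels have adjusted p-values from 0.0906 upwards.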

How the data were processed

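The RNA of fetal hearts, gonads and livers was prepared with a Truseq stranded mRNA kit and that of maternal blood with a SMARTer stranded kit. The authors trimmed reads with Trimmomatic, mapped them with STAR 2.7.0b to the bovine genome ARS-UCD1.3 and deposited raw counts per Entrez gene from featureCounts (Subread 2.0.3). Options for strand, read pairs and multi-mapping reads are not given in the sources used here. No column of the deposited table was left unused.

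RefSeq names (assembly ARS-UCD2.0, used for names, gene class and overlap of gene spans) matched 31630 of 35092 rows. That assembly is not the build of the counts, so no coordinates are given. Levels are CPM after TMM scaling, over the 26 organ libraries together and over the 10 blood libraries. Tests used edgeR 4.0.16 (R 4.3.3) with its quasi-likelihood test, on genes that reached 10 counts in 4 or more libraries of a fit, with Benjamini-Hochberg adjustment over all genes tested and a threshold of 0.05. DESeq2 1.42.0, median-ratio scaling, a filter of at least 1 count, the removal of mitochondrial genes, covariates for transfer group and depth, a spline with 2 degrees of freedom and leaving out each fetus were alternatives, and plain library totals for the organ contrasts were added after seeing the data. The scripts were tested on simulated data with known changes.

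Libraries of the same number come from the same fetus, so the organ contrasts were also fitted with the fetus as a replicate block. Deviations from the organ means correlated at −0.073 to 0.207 (median 0.025) in the 23 pairs of organ libraries from the same fetus and at a median of −0.007 in the 202 pairs from different fetuses. Within a tissue each library is 1 animal, and the p-values for weight measure the spread between animals. The main organ fit took the 26 libraries of 10 fetuses as independent, so its p-values leave the shared fetus out of account.

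The members and gene lists were chosen with earlier results of these data known. Genes named were the 8 members with the highest mean CPM per tissue, up to 6 members per organ that were higher than in both others by the smaller log2 difference, per tissue the members with an adjusted p under 0.05 for weight or else the 4 with the smallest p, fixed ligand and receptor pairs, and the atypical receptors. Further genes were named where a count of at most 5 needed it or where a list was spelled out. Some members are counted but not reported by name here.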

Additional observations from a re-analysis of the deposited data

Results flagged for a closer look

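In a scan of 56 groups of chemokine gene levels, each 1 gene in 1 tissue on the log2(CPM + 1) scale, 6 groups held a library set apart from the others by Dixon's criterion. Chance alone marks about 1 in 20 groups, and the levels of different genes in 1 library are not independent. Of these, 3 lay in the liver of fetus 3, where CCL16 was lowest at 67.3 CPM, CXCL12 highest at 11.95 CPM and CXCL16 highest at 5.36 CPM. The same liver had the highest sum of neutrophil markers (158.8 CPM) and the lowest of red cell markers (1474 CPM), whose part in the 3 levels was not tested.

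In the heart, CCL1 was lowest in fetus 1, at 0 CPM, and CCL27 was lowest in fetus 3, at 8.48 CPM. In maternal blood, CCR9 was lowest in the heifer carrying fetus 7, at 16.4 CPM.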

How the results depend on the processing

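Of the organ counts, that of genes higher in the heart than in both others went from 5 to 3 with the fetus as a replicate block. Over single contrasts the block lost CCL1 and CCL3 in heart minus liver, CCL3, CCR10 and CXCL16 in gonad minus liver and ACKR1 and CCL2 in heart minus gonad, and gained CCL14 in the first and CCL25 in the second. Plain library totals, added after seeing the data, gave 2 genes higher in the heart and 8 in the gonads and turned CCL27 in heart minus gonad to −0.27. The counts of genes with an adjusted p under 0.05 for weight were small and moved often. DESeq2 gave 1 for the linear term in the heart, 2 in the liver, and 1 for the spline in heart, gonads and liver. In the liver the linear count of 1 became 0 with a filter of at least 1 count, with transfer group as a covariate and without the 2 heaviest fetuses, and the spline count became 1 without the 2 heaviest. Leaving out 1 fetus at a time gave 0 to 2 for the linear term in heart and liver, 0 to 2 for the spline in the gonads and 0 to 1 for the spline in the liver. The causes were not tested.

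The slope of CX3CL1 in the gonads turned to −0.11 with transfer group as a covariate, that of CCL5 in blood to −0.0027 without the 2 heaviest fetuses. Leaving out the blood libraries that held muscle genes was chosen after seeing the data, and left 0 genes at an adjusted p under 0.05 in blood by either fit. Plain totals raised gonad levels, so that mean levels became 14.2 CPM in gonads and 11.7 CPM in hearts for CCL27 and 55.03 and 25.7 CPM for CCL25. Counts near 10 limit CCL2, CCL24, CCR7 and liver CX3CR1.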
